A study of Mus musculus with 19 samples.

Results

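The step across birth in the glial cells of the mouse sciatic nerve was described from the 3 arrays labelled P0, the day of birth, and the 3 labelled E18, embryonic day 18, out of 19 arrays in the series. Both groups were sorted cells from mice that carry green fluorescent protein under a glial promoter, so that the fluorescence marks crest-derived cells and the glia they give rise to. In each, the dissected sciatic nerve gave the cells and the fluorescence was the gate. The labels name the P0 cells Schwann cells and record no mutation, treatment or strain for either group. The E16 nerve arrays, 4 in number, served to ask whether a change at birth differed from the interval before it, and the other arrays entered the fit only through their spread. The labels do not say whether arrays of one stage came from separate litters, so p-values may not cover a spread between litters. The p-values rest on the spread of arrays within a stage, pooled over all 19 arrays.

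Schwann cells are the glia of peripheral nerve. Around birth and in the days after it in rodents, immature Schwann cells leave the cell cycle, settle with single large axons in a process called radial sorting, and start to build myelin, the lipid-rich membrane sheath that insulates the axon. Birth itself changes oxygen supply, temperature, feeding and hormones, and cells respond to oxygen through the HIF transcription factors. These drive enzymes of glycolysis, glucose transporters and a kinase that keeps pyruvate from oxidation in the mitochondria.

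Expression was measured on an oligonucleotide array as a model-based expression index, a linear intensity with no absolute unit. Values were raised to a floor of 68.5, the 25th percentile of all values, and compared on a log2 scale with limma, with Benjamini-Hochberg adjustment over 10414 probe sets. A change below means P0 minus E18 on that scale, and a called probe set is one with an adjusted p under 0.05. The number of arrays limits the precision. The median index was 176, 174 and 207 on P0 replicates 1, 3 and 4, against 189, 182 and 179 on E18 replicates 1, 2 and 3. The ratio of 3' to 5' signal at the array's GAPDH controls, a measure that climbs as amplified RNA gets shorter, was 7.69, 6.80 and 4.69 on the P0 arrays in the same order, against 4.83, 4.11 and 4.18 on the E18 arrays. P0 replicates 1 and 3 thus lay above every E18 array in this measure and P0 replicate 4 within their range.

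The P0 arrays differed from one another over the whole profile. Their rank correlations with each other were 0.846 to 0.907, against 0.937 to 0.978 among the E18 arrays. The median standard deviation of a probe set within the stage was 0.374 log2 units at P0 and 0.191 at E18, and P0 had the highest of the 6 stages. P0 replicate 4 had rank correlations of 0.934 to 0.948 with the E18 arrays and was closest to E16 replicate 4, at 0.951. P0 replicate 3 was closest to E18 replicate 3, at 0.927. P0 replicate 1 had 0.862 to 0.876 with the E18 arrays and was closest to E16 replicates 1 and 2, at 0.931 with each. More than 1 log2 unit from the E18 mean were 1369 probe sets on P0 replicate 1, 852 on P0 replicate 3 and 411 on P0 replicate 4. The groups' arrays also differ in the lot number of the labels, lots 1, 3 and 4 at P0 and lots 1, 2 and 3 at E18, so 2 pairs share a lot. Each result below is therefore given array by array.

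**Figure D1:**
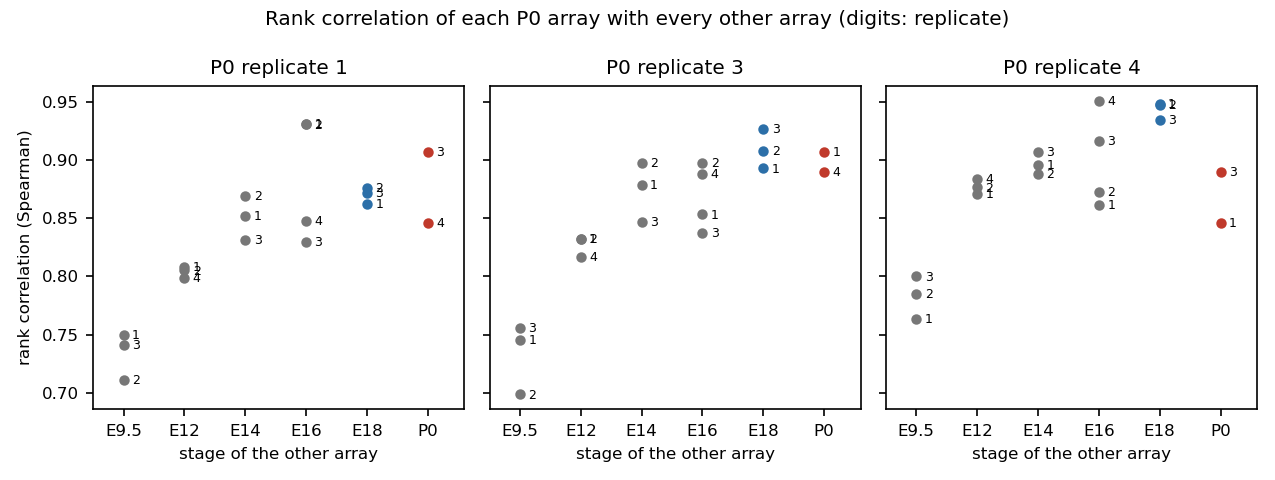
Rank correlation (Spearman, over the 10414 probe sets tested, vertical axis) of each P0 array with every other array, by the stage of the other array; each point is an array and the digit beside it its replicate number. P0 replicate 1 is highest with E16 replicates 1 and 2 (0.931 each), P0 replicate 3 with E18 replicate 3 (0.927) and P0 replicate 4 with E16 replicate 4 (0.951).

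The sorted cells carried Schwann cell transcripts on every array. Sox10, the transcription factor of the neural crest and Schwann lineage, had an index of 1243, 3256 and 2522 at P0, against 2125, 2230 and 1363 at E18. Erbb3, the receptor through which axonal neuregulin reaches Schwann cells, had 1680, 3580 and 3972 at P0, against 4283, 3727 and 3683 at E18. Dhh, the hedgehog ligand that Schwann cells send to the surrounding sheath, had 2353, 4471 and 4366 at P0, against 3506, 3342 and 3670 at E18. The groups overlapped for all of these genes, and P0 replicate 1 was the lowest of the P0 arrays in each. The summed index of 14 macrophage markers was 2235 to 2622 at P0 and 2399 to 2967 at E18, and that of 9 endothelial markers 1540 to 2225 at P0 and 1777 to 2405 at E18. Collagens that fibroblasts also make were high at both stages, with Col1a2 at 6810, 8056 and 7778 at P0, against 8277, 7725 and 6698 at E18. In sorted populations measured in bulk, fewer cells of a type and less RNA per cell cannot be told apart.

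Across birth few transcripts moved beyond the spread of the arrays. Of 10414 probe sets, 13 were called, or 0.125%, with 4 higher (0.0384%) and 9 lower (0.0864%) at P0. An enzyme and a kinase of glucose metabolism, a collagen-modifying enzyme, mitotic genes and a beta-globin fell, and a taurine transporter and a cold-inducible RNA-binding protein rose. At an unadjusted p under 0.05 stood 1219 probe sets, 623 of them higher (5.98%) and 596 lower (5.72%) at P0. All 13 kept their direction in each alternative run, but the count rests on single arrays. It was 715 without P0 replicate 4 and 58 without E18 replicate 3, and 4, 6, 4 and 2 without P0 replicate 1, P0 replicate 3, E18 replicate 1 and E18 replicate 2. With the replicate number as a block it was 40, with array weights 865, and in a fit of the 6 arrays alone 0, with 769 probe sets at an unadjusted p under 0.05. Pdk1 and Hbb-b2 were called without each of the 6 arrays in turn, and the other 11 were not. Of the 13, Yipf5 lost its call without E18 replicate 3. Compared within lot 1 and within lot 3, all 13 had the sign of the fit, with Pdk1 at -1.46 and -2.49 and Cirbp at 0.60 and 0.72.

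**Figure D2:**
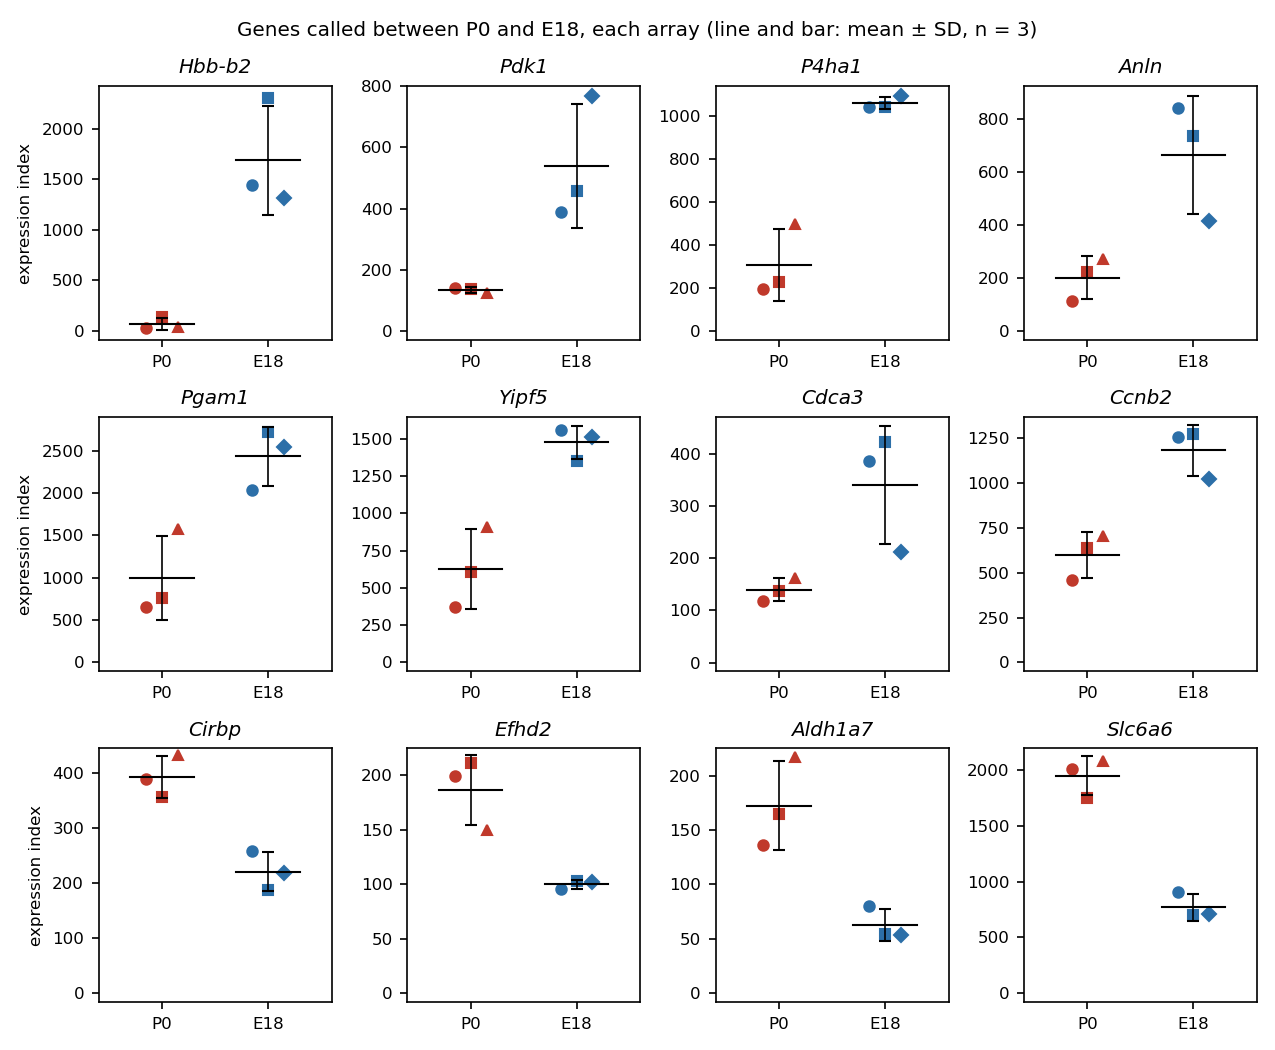
Expression index (vertical axis, linear) of the 12 called genes with a single symbol on each P0 array (red: circle, square and triangle for replicates 1, 3 and 4) and each E18 array (blue: circle, square and diamond for replicates 1, 2 and 3); the line and bar give the mean and SD. The stages do not overlap for any of the 12, the 8 genes of the upper rows being lower and the 4 of the bottom row higher at P0.

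Pdk1 is the kinase that phosphorylates pyruvate dehydrogenase and so keeps pyruvate from oxidation in the mitochondria. Pdk1 had an index of 142, 137 and 123 at P0, against 390, 458 and 768 at E18. The 3 P0 arrays lay closer together than the E18 arrays, and every one was below the lowest of them. The change was -1.95 ± 0.22 (SE), a level 3.85-fold lower at P0, with an adjusted p of 0.00167 by limma. P4ha1, the catalytic subunit of the prolyl hydroxylase that matures collagen and a known HIF target, had 197, 227 and 500 at P0, against 1045, 1046 and 1094 at E18. It fell by 1.92 ± 0.35 (SE), with P0 replicate 4 the highest of the P0 arrays. Pgam1, the phosphoglycerate mutase of glycolysis, had 655, 761 and 1571 at P0, against 2038, 2716 and 2543 at E18, and fell by 1.39 ± 0.23 (SE). P4ha1 and Pgam1 had adjusted p-values of 0.0398 and 0.0272 by limma, which became 0.158 and 0.0938 without P0 replicate 1, and both also lost their calls without P0 replicate 3, E18 replicate 1 or E18 replicate 2. With the GAPDH ratio as a covariate their adjusted p-values were 0.0528 and 0.0804 by limma, and that of Pdk1 was 0.00105.

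These 3 genes are shown with their promoters because HIF binds a short element in the genes it drives. The sequences are the 150 bases before the transcription start in RefSeq's annotation of GRCm38.p6, read from 5′ to 3′ on the strand of the gene, with matches to the core of the hypoxia response element (ACGTG or GCGTG, either strand) in capitals. The Pdk1 stretch is chr2:71873074-71873223 on the plus strand, that of P4ha1 chr10:59323146-59323295 on the plus strand and that of Pgam1 chr19:41911721-41911870 on the plus strand.
Pdk1: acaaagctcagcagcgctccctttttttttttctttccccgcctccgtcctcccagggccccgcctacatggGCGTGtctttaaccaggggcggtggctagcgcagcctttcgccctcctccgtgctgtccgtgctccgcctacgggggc
P4ha1: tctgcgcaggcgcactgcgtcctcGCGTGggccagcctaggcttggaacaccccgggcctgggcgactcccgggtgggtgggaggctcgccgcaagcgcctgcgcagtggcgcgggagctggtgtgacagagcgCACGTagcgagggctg
Pgam1: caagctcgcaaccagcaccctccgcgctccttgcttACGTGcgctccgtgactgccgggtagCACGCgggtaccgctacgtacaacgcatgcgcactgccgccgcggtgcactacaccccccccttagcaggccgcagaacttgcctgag
The 250 bases before the start held 1 match in Pdk1, 3 in P4ha1 and 3 in Pgam1. Such a core lay in 38.6% of 32851 RefSeq promoter stretches of that length. Of the other called genes with an entry, Cirbp, Efhd2, Ccnb2 and Anln held a match and Cdca3 and Aldh1a7 none. It describes the letters and is no evidence of binding.

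Glycolysis as a list followed Pgam1 in part. Of its 15 genes tested, 1 was called, Pgam1, where 0.108% of all 7414 genes were called lower. In 7 genes, every P0 array lay below every E18 array, which held for 4.32% of all genes, and these were Pgam1, Pgk1, Tpi1, Pfkl, Hk2, Ldha and the glucose transporter Slc2a1. The median change of the list was -0.69, against 0.00 over all genes, and it was -1.08, -0.64 and -0.26 on P0 replicates 1, 3 and 4 taken alone. Without P0 replicate 4, 7 of the 15 were called lower, against 6.43% of all genes, and with the replicate block 5 were, against 0.364% of all genes. With the GAPDH ratio as a covariate none was called, against 0.0405% of all genes, and the median was -0.46. The names from here on that are not the called genes or the first members of a list by the rule were chosen after their values were seen.

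Several enzymes of the pathway show the order of the arrays. Pgk1, which makes the first ATP of glycolysis, had 784, 1153 and 1698 at P0, against 2298, 3231 and 3114 at E18, a change of -1.30 ± 0.27 (SE, adjusted p = 0.0677 by limma). Tpi1, the triose phosphate isomerase, had 890, 1154 and 1723 at P0, against 2181, 2401 and 3424 at E18. Ldha, which turns pyruvate into lactate, had 2543, 3460 and 4172 at P0, against 5241, 5822 and 5089 at E18. In all of them P0 replicate 1 was lowest and P0 replicate 4 highest among the P0 arrays, and in none did P0 replicate 4 reach the E18 range. Slc2a1, the main glucose transporter of many growing cells, had 126, 102 and 219 at P0, against 220, 266 and 311 at E18, so that P0 replicate 4 lay just below the lowest E18 array. Of the 15 genes, 9 had a lower and 6 a higher estimate at P0. Some other members overlapped between the stages. Aldoa, an abundant aldolase, had 3728, 4929 and 3802 at P0, against 4573, 4458 and 5018 at E18. Ldhb, the lactate dehydrogenase subunit that favours pyruvate, had 1385, 1584 and 2933 at P0, against 1444, 1270 and 1279 at E18. Hk1 had 54.4, 353 and 516 at P0, against 203, 202 and 283 at E18, with P0 replicate 1 below and the other P0 arrays above all E18 arrays.

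Of 12 hypoxia-response genes tested, 2 were called lower, Pdk1 and P4ha1, against 0.108% of all genes. An unadjusted p under 0.05 and a lower level held for 6, against 6.64% of all genes. In 4, every P0 array lay below every E18 array, against 4.32% of all genes. Egln1, the oxygen-sensing hydroxylase that marks HIF for destruction and is itself a HIF target, had 527, 474 and 1122 at P0, against 1346, 1278 and 1467 at E18, a change of -1.06 ± 0.28 (SE, adjusted p = 0.162 by limma). Vegfa, the endothelial growth factor, lay at or below the floor on all P0 arrays, with 46.3, 34.3 and 49.5, against 95.5, 71.8 and 80.6 at E18. Ddit4, an inhibitor of mTOR signalling, had 804, 891 and 1917 at P0, against 1771, 1501 and 2525 at E18, and these ranges overlapped. Hif1a itself had 2732, 1429 and 3094 at P0, against 3201, 2569 and 2989 at E18. Adm, adrenomedullin, another HIF target, had 1338, 1137 and 857 at P0, against 736, 1011 and 863 at E18, and Ndrg1 1334, 1782 and 3366 at P0, against 1505, 1799 and 1414 at E18. The list's median change was -0.30, with -0.21, -0.53 and 0.01 on P0 replicates 1, 3 and 4. Without P0 replicate 4, 4 of the 12 were called lower, against 6.43% of all genes. Only Pdk1 was called lower without P0 replicate 1 or without P0 replicate 3, against 0.027% of all genes in either fit.

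**Figure D3:**
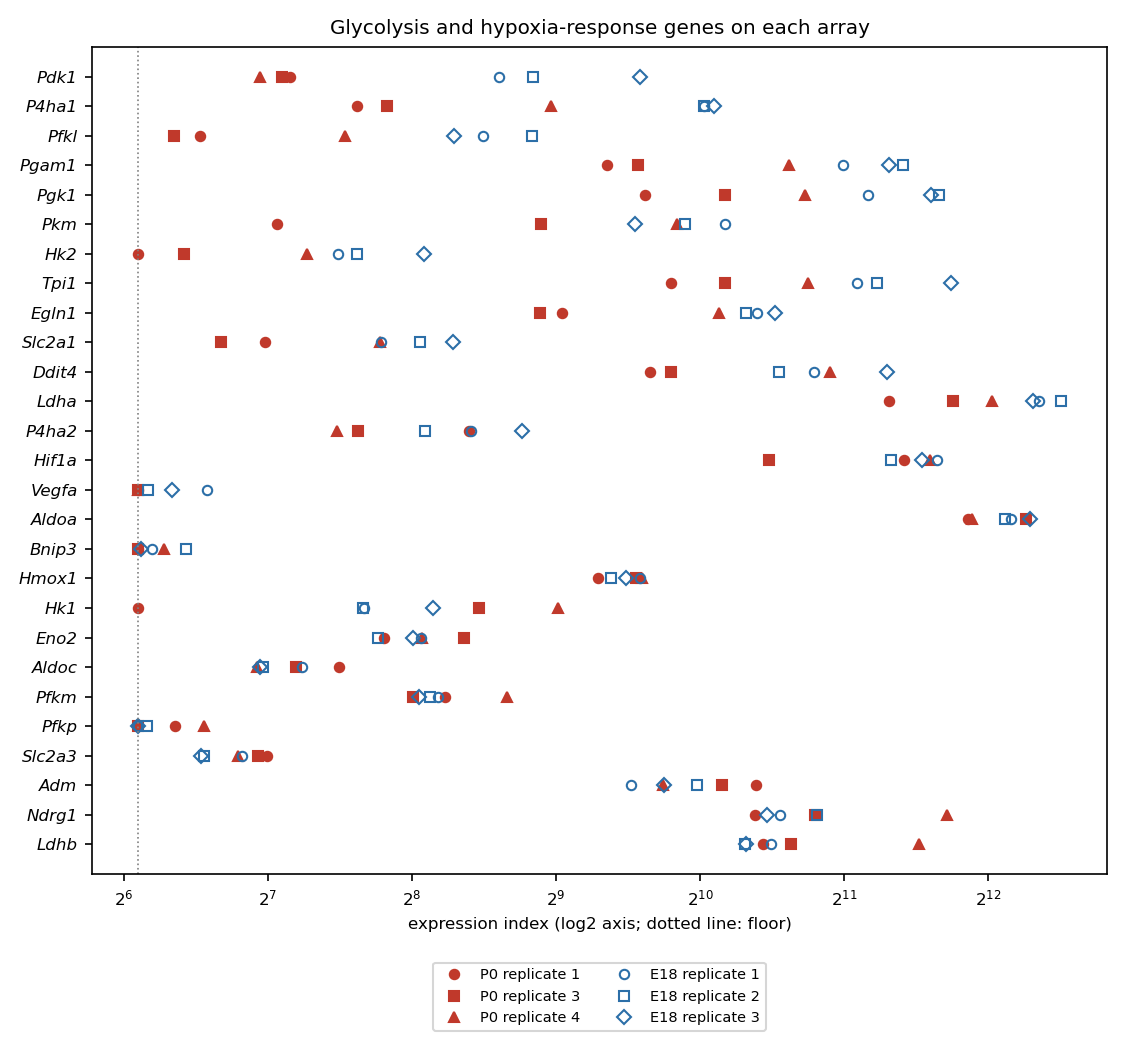
Expression index (horizontal axis, log2 scale, values below the floor drawn at the dotted line) of the glycolysis and hypoxia-response genes tested, on each P0 array (filled red) and each E18 array (open blue), ordered by the fitted change with the most negative on top. Pdk1 lies at 123 to 142 at P0 and at 390 to 768 at E18; in Pgk1, Pgam1, Tpi1 and Ldha the triangle of P0 replicate 4 stands between the other P0 arrays and the E18 arrays.

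The respiratory chain gave no call. Among 30 genes of oxidative phosphorylation the median change was 0.04, and it ran from -0.40 on P0 replicate 1 to 0.44 on P0 replicate 4. Its 3 genes above E18 on all P0 arrays compare with 7.01% of all genes. Ndufa5, a subunit of complex I, had 1952, 1986 and 1681 at P0, against 977, 847 and 1353 at E18 (adjusted p = 0.144 by limma). Cox5a, a subunit of cytochrome oxidase, had 511, 446 and 433 at P0, against 266, 331 and 284 at E18 (adjusted p = 0.252 by limma). Ndufb9, also of complex I, was the remaining one.

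The steepest fall was in a beta-globin. Hbb-b2, an adult beta chain of haemoglobin, had 29.4, 138 and 38.9 at P0, where 2 of 3 arrays were below the floor, against 1445, 2306 and 1311 at E18. Its level was at least 18.9-fold lower at P0, and the fitted change was -4.24 ± 0.52 (SE, adjusted p = 0.00228 by limma). A second called probe set, shared by the symbols Hbb-bt, Hbb-bs, Hbb-b2 and Hbb-b1, had 224, 310 and 216 at P0, against 2244, 3946 and 1947 at E18, a change of -3.39 ± 0.47 (SE). The adult beta-globin genes are near-identical copies, so which of them was measured is uncertain. Hba-a1, an alpha chain, had 605, 605 and 498 at P0, against 1281, 2102 and 1556 at E18 (adjusted p = 0.133 by limma).

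Other genes of red cells were mixed. Of 10 erythroid markers tested, 1 was called, against 0.108% of all genes called lower, and 3 lay lower on all P0 arrays, against 4.32%. These were Hbb-b2, Hba-a1 and Hbb-bh1, an embryonic beta chain that had 270, 222 and 261 at P0, against 320, 388 and 335 at E18 (adjusted p = 0.452 by limma). Of the 10, 6 had a lower and 3 a higher estimate at P0, and the summed index of the list was 2582 to 3048 at P0 and 4961 to 6516 at E18. Slc4a1, the anion exchanger of the red cell membrane, had 84.7, 99.2 and 153 at P0, against 150, 144 and 141 at E18. Alas2, the haem synthesis enzyme of erythroid cells, had 230, 175 and 125 at P0, against 198, 118 and 162 at E18. Klf1, the erythroid transcription factor, had 870, 836 and 697 at P0, against 692, 640 and 738 at E18. Hbb-y, another embryonic beta chain, had 193, 173 and 149 at P0, against 115, 147 and 107 at E18, and embryonic Hba-x was below the floor on all 6 arrays. Another Hbb-y probe set was also below the floor on all 6 arrays, with 28.9, 12.7 and 4.63 at P0, against 27.2, 27.1 and 27.7 at E18. Whether red cells or their RNA in the sorted sample had a part in the globin change was not tested.

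Genes of mitosis made up 3 of the falls. Ccnb2, the B-type cyclin that drives entry into mitosis with Cdk1, had 458, 641 and 704 at P0, against 1260, 1273 and 1021 at E18, a level 1.99-fold lower at P0 (adjusted p = 0.0272 by limma). Anln, anillin, the scaffold of the contractile ring that divides the cell, had 113, 225 and 271 at P0, against 841, 738 and 417 at E18, and fell by 1.74 ± 0.32 (SE). Cdca3, which promotes mitotic entry, had 118, 138 and 162 at P0, against 387, 423 and 212 at E18, and fell by 1.24 ± 0.21 (SE). All 3 lost their calls without P0 replicate 1, P0 replicate 3, E18 replicate 1 or E18 replicate 2, and with the GAPDH covariate, where the adjusted p-values by limma were 0.0804, 0.132 and 0.0917. In each, P0 replicate 1 was lowest and P0 replicate 4 highest among the P0 arrays, and E18 replicate 3 was the lowest E18 array. The change between the arrays of lot 1 (P0 replicate 1 minus E18 replicate 1) was -1.46 for Ccnb2, -2.89 for Anln and -1.71 for Cdca3, and between those of lot 3 it was -0.67, -0.89 and -0.62.

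Promoters of mitotic genes often carry CCAAT boxes, which the factor NF-Y binds, and the 2 genes here with such boxes near the start are shown for that reason, in the same 150 bases and with CCAAT on either strand in capitals. The Ccnb2 stretch is chr9:70421555-70421704 on the minus strand and the Cdca3 stretch chr6:124830026-124830175 on the plus strand.
Ccnb2: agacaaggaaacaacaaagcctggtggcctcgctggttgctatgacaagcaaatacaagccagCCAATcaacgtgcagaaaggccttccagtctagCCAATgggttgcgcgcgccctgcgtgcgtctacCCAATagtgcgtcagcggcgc
Cdca3: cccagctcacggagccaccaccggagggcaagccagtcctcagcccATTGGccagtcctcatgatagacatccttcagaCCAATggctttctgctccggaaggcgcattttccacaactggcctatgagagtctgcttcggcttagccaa
Ccnb2 held 3 such boxes and Cdca3 2 within the 250 bases before the start, and Anln held none. Cirbp and Aldh1a7, which rose, held 2 each, and Pdk1, P4ha1, Pgam1 and Efhd2 none. A CCAAT box lay in 33.8% of the 32851 RefSeq stretches. Another motif of such promoters, the cell cycle homology region (TTTGAA or TTCGAA, either strand), lay in 17.1% of them and, of these 3 genes, in Ccnb2, where 1 match began 167 bases before the start. Of the 12 called genes with a single symbol, 9 had a promoter entry.

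Over 28 cell cycle genes tested the median change was -0.79. Ccnb2 was the 1 called, where 0.108% of all genes were called lower. An unadjusted p under 0.05 and a lower level at P0 held for 17, against 6.64% of all genes, and none had one with a higher level. On single P0 arrays the median was -0.95 for replicate 1, -0.74 for replicate 3 and -0.24 for replicate 4. Within lots it was -1.29 in lot 1 and -0.07 in lot 3. Without P0 replicate 4, 7 of the 28 were called lower, against 6.43% of all genes, and with the replicate block 2 were, against 0.364%. No member was called without P0 replicate 1 or P0 replicate 3. With the GAPDH ratio as a covariate none was called and the median was -0.47.

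E18 replicate 3 stood apart in these genes. Mki67, the proliferation marker, had 785, 1315 and 903 at P0, against 2534, 2718 and 1303 at E18. Top2a, the topoisomerase that untangles chromosomes, had 115, 370 and 372 at P0, against 1165, 1082 and 328 at E18. Ccna2, the cyclin of S phase and G2, had 433, 543 and 480 at P0, against 1140, 1185 and 576 at E18. In each, E18 replicates 1 and 2 were far above all P0 arrays, while E18 replicate 3 was near or within the P0 range. The replication genes behaved otherwise. Pcna, the sliding clamp of DNA polymerase, had 1867, 1364 and 2757 at P0, against 3221, 3144 and 3096 at E18 (adjusted p = 0.133 by limma). Mcm3, of the replicative helicase, had 313, 273 and 654 at P0, against 793, 657 and 788 at E18. Here the E18 arrays lay together, and P0 replicate 4 came closest to them. Mcm5, another helicase subunit, had 3012, 1794 and 1223 at P0, against 1519, 1361 and 1308 at E18. It was among the 4 genes of the list with a higher estimate at P0, where 22 had a lower one.

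**Figure D4:**
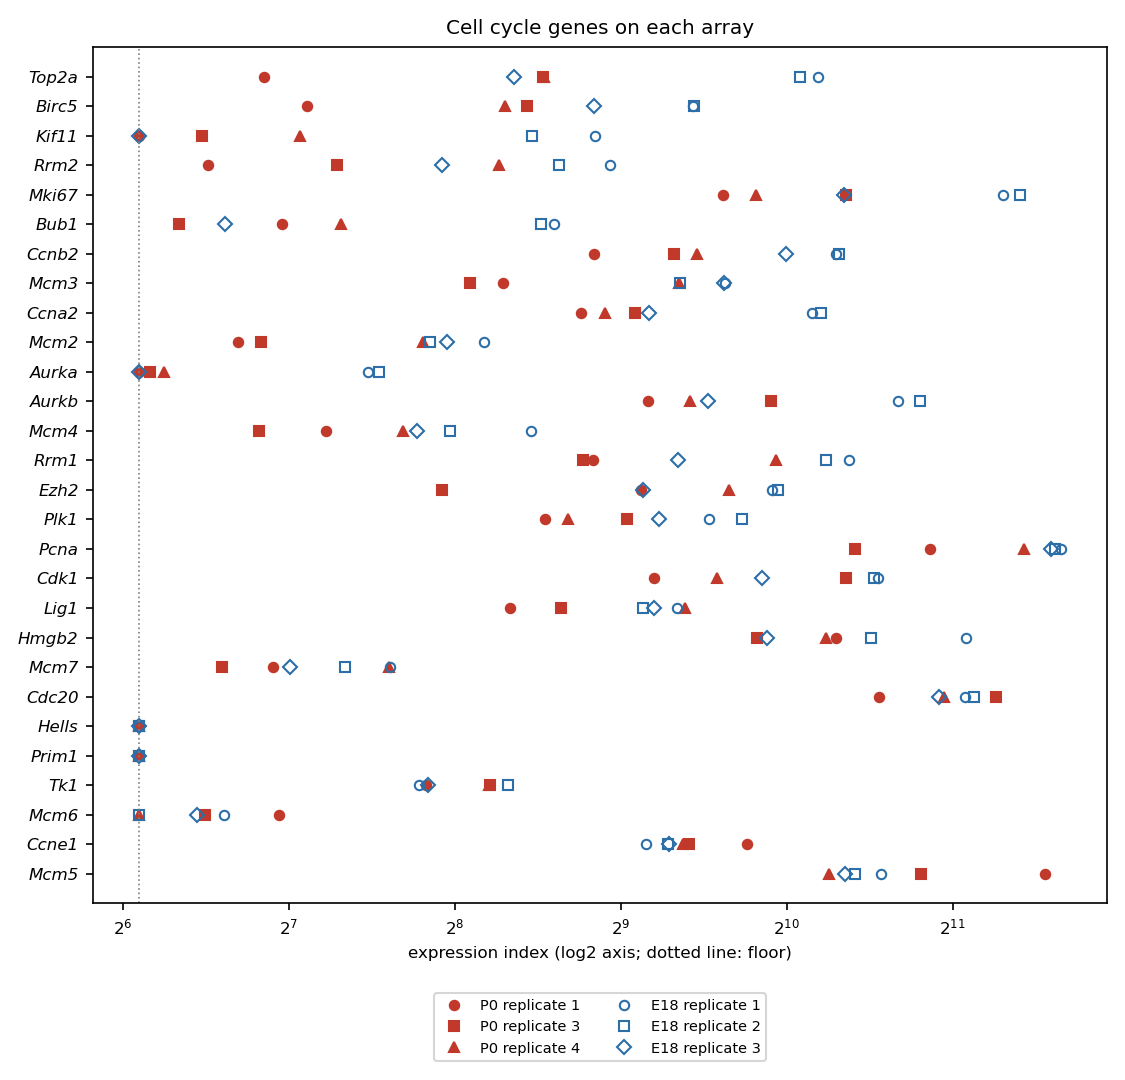
Expression index (horizontal axis, log2 scale, values below the floor drawn at the dotted line) of the 28 cell cycle genes tested, on each P0 array (filled red) and each E18 array (open blue), ordered by the fitted change with the most negative on top. In Top2a, Mki67 and Bub1 the open diamond of E18 replicate 3 lies among the P0 arrays (Top2a 328, against 1165 and 1082 on the other E18 arrays).

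The regulators of entry into the cycle were not called. Ccnd1, the cyclin that couples growth signals to the cycle, had 1779, 1543 and 3678 at P0, against 3625, 3479 and 3134 at E18 (adjusted p = 0.288 by limma). A dimmer Ccnd1 probe set had 432, 811 and 632 at P0, against 770, 578 and 590 at E18 (change -0.08, adjusted p = 0.969 by limma). Ccnd2 had 109, 104 and 1310 at P0, against 1603, 1162 and 793 at E18, so that 2 of 3 P0 arrays lay several-fold below and P0 replicate 4 within the E18 range. Without P0 replicate 4 the brighter Ccnd1 probe set and Ccnd2 passed, with adjusted p-values of 0.00216 and 0.00154 by limma. Cdkn1a, the p21 inhibitor of the cycle, had 1085, 1542 and 1679 at P0, against 544, 412 and 861 at E18 (adjusted p = 0.417 by limma). Cdkn1c, the p57 inhibitor, had 4711, 7509 and 8306 at P0, against 6898, 6745 and 5753 at E18.

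Other genes next in line by the test and without overlap were also of the cycle. Smc2, of condensin, had 343, 394 and 522 at P0, against 1240, 1145 and 727 at E18. Pclaf, the PCNA-associated factor, had 372, 239 and 427 at P0, against 809, 653 and 551 at E18. Kif22, a kinesin of the spindle, had 605, 829 and 821 at P0, against 1900, 1679 and 1035 at E18. Rbl1, the retinoblastoma relative p107, had 132, 109 and 209 at P0, against 462, 409 and 317 at E18. Their adjusted p-values by limma were 0.0661, 0.0677, 0.0771 and 0.0677, so none passed. Outside the cycle, Abcg2, an efflux transporter, had 164, 215 and 368 at P0, against 491, 477 and 545 at E18, and Mtmr9, a myotubularin relative, 52.0, 67.6 and 130 at P0, against 218, 198 and 176 at E18. Another Mtmr9 probe set overlapped, with 67.2, 58.3 and 117 at P0, against 92.9, 105 and 60.2 at E18. Its change was -0.10 (adjusted p = 0.928 by limma).

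The last fall was in Yipf5, a membrane protein of the endoplasmic reticulum and Golgi, with 370, 605 and 909 at P0, against 1564, 1354 and 1514 at E18, a change of -1.33 ± 0.24 (SE, adjusted p = 0.0398 by limma). Its other probe set had 375, 366 and 830 at P0, against 823, 696 and 758 at E18 (change -0.64, adjusted p = 0.422 by limma). The probe sets agreed in direction, and P0 replicate 4 reached the E18 range in the second. With the GAPDH covariate the called probe set had an adjusted p of 0.132 by limma.

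Of the genes that rose, Slc6a6, the transporter that takes up taurine, had the largest change. It had 2014, 1754 and 2087 at P0, against 912, 698 and 706 at E18, a change of 1.35 ± 0.22 (SE, 2.54-fold, adjusted p = 0.0272 by limma). Its other probe set had 1348, 2221 and 2925 at P0, against 1501, 1347 and 1131 at E18, where P0 replicate 1 was within the E18 range (change 0.65, adjusted p = 0.401). Cirbp, a cold-inducible protein that binds and stabilises mRNAs, had 390, 357 and 433 at P0, against 258, 187 and 218 at E18, and rose by 0.84 ± 0.13 (SE, adjusted p = 0.0272 by limma). The 3 P0 arrays were close together in both Cirbp and the called probe set of Slc6a6, as they were in Pdk1.

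Efhd2, a calcium-binding protein also called swiprosin 1, had 199, 211 and 150 at P0, against 95.5, 103 and 102 at E18, and rose by 0.88 ± 0.15 (SE, adjusted p = 0.0272 by limma). A second Efhd2 probe set had 327, 116 and 121 at P0, against 158, 145 and 140 at E18 and did not pass (change 0.17, adjusted p = 0.902). Aldh1a7, an aldehyde dehydrogenase, had 136, 165 and 217 at P0, against 80.1, 54.5 and 53.5 at E18, where 2 of 3 arrays were below the floor. Its level was at least 2.35-fold higher at P0 (adjusted p = 0.0398 by limma). Slc6a6, Aldh1a7 and Efhd2 lost their calls without P0 replicate 1, P0 replicate 3, E18 replicate 1 or E18 replicate 2, and Cirbp without P0 replicate 1 or E18 replicate 2. With the GAPDH covariate Slc6a6 and Efhd2 had adjusted p-values of 0.0606 and 0.0804 by limma, while Cirbp and Aldh1a7 passed.

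The next higher genes by the test, all with P0 arrays above every E18 array, were not called. Fst, follistatin, the inhibitor of activins, had 343, 425 and 694 at P0, against 176, 223 and 166 at E18 (adjusted p = 0.0661 by limma). Mt2, a metallothionein that binds zinc and answers to glucocorticoids, had 1095, 2328 and 898 at P0, against 367, 494 and 569 at E18 (adjusted p = 0.0677 by limma). Its neighbour Mt1 had 585, 2770 and 1013 at P0, against 240, 261 and 514 at E18. In both metallothioneins P0 replicate 3 was highest by far. Socs2, a feedback inhibitor of growth hormone signalling, had 677, 601 and 1023 at P0, against 343, 358 and 336 at E18. Gpd2, the mitochondrial glycerol phosphate dehydrogenase, had 405, 738 and 640 at P0, against 254, 247 and 302 at E18. P2rx4, an ATP-gated channel, had 564, 570 and 771 at P0, against 259, 316 and 426 at E18. The others in this group were St7, Rit2, Ager, Ada, Xpc and Aopep, with changes of 0.65 to 0.95 and adjusted p-values of 0.0670 to 0.102 by limma. A brighter Rit2 probe set had 801, 648 and 656 at P0, against 1013, 664 and 742 at E18. Its estimate was opposite, at -0.18 (adjusted p = 0.720 by limma). The other probe sets of Ada had changes of 0.29 and 0.13 and that of Aopep 0.19, and none passed.

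Myelin genes showed no call between the stages. At the brightest probe set of each gene, all 9 tested had an adjusted p above the threshold. Of all 7414 genes, only 2 were called higher and 8 lower. None of the 9 had an unadjusted p under 0.05, which 450 of all 7414 genes had with a higher and 492 with a lower level. The median change was 0.07, with -0.33, 0.08 and 0.27 on P0 replicates 1, 3 and 4. Pmp22, a membrane protein of compact peripheral myelin, had 5075, 5470 and 6184 at P0, against 5198, 5044 and 3649 at E18. Mbp, which glues the cytoplasmic faces of the myelin membrane, had 3206, 4747 and 5170 at P0, against 4382, 3672 and 4033 at E18. A dimmer Mbp probe set, near the floor, had 120, 40.2 and 124 at P0, against 66.9, 66.6 and 45.3 at E18 (change 0.56, adjusted p = 0.256 by limma). Cd9 had 2050, 2279 and 4121 at P0, against 3225, 3263 and 3781 at E18, and Mal, a raft protein of myelin, 1109, 1440 and 3401 at P0, against 2300, 1917 and 2195 at E18. The stages overlapped in each of these genes, so that the data set no order between them.

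The factors that start and hold back myelination were also not called. Egr2, which switches myelin genes on, had 3007, 1958 and 4379 at P0, against 4213, 5061 and 3797 at E18. Pou3f1, which acts with it, had 305, 557 and 2098 at P0, against 590, 651 and 338 at E18, where P0 replicate 4 alone was several-fold above. Sox2, which holds Schwann cells immature, had 2279, 3054 and 4039 at P0, against 3586, 4425 and 4543 at E18. Jun, which opposes Egr2 in Schwann cells, had 2448, 2850 and 2833 at P0, against 4414, 4411 and 3274 at E18, and did not overlap (adjusted p = 0.410 by limma). Of 16 genes of Schwann cell precursors, 4 had an unadjusted p under 0.05 and a lower level, against 6.64% of all genes. Of the 16, 10 had a lower estimate at P0, 3 had a higher one (Sox10, Dhh and Gap43), and 3 were at the floor on all arrays of both stages. Fabp7, the brain lipid-binding protein of immature glia, had 144, 85.6 and 404 at P0, against 422, 577 and 439 at E18 (adjusted p = 0.182 by limma). Cdh2, N-cadherin, had 265, 138 and 453 at P0, against 748, 563 and 408 at E18. Gfra3, the receptor subunit for artemin, had 251, 366 and 311 at P0, against 381, 471 and 750 at E18.

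Cholesterol synthesis, which myelin growth draws on, split the P0 arrays. The median change of 15 genes was -0.69 on both P0 replicate 1 and P0 replicate 3 and 0.40 on P0 replicate 4, and none was called. Hmgcs1, the synthase that makes HMG-CoA, had 605, 419 and 2560 at P0, against 2052, 1828 and 1958 at E18. Idi1 had 725, 414 and 2045 at P0, against 1521, 1517 and 1636 at E18, and Sqle, the squalene epoxidase, 899, 745 and 2303 at P0, against 2137, 1658 and 1719 at E18. Here P0 replicates 1 and 3 were below all E18 arrays and P0 replicate 4 above them. Without P0 replicate 4, 5 of the 15 were called lower, against 6.43% of all genes. In fatty acid and sphingolipid synthesis the same arrays gave -0.48, -0.11 and 0.47 over 14 genes. Scd2, a fatty acid desaturase, had 6053, 7112 and 6921 at P0, against 8091, 7814 and 6355 at E18.

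Immediate early and stress genes, which dissection and dissociation can induce, varied in the same way. Over 28 genes the median change was -0.58, with -0.74, -0.96 and -0.04 on P0 replicates 1, 3 and 4, and none was called. The estimate was lower at P0 in 24 of the 28, and 8 had an unadjusted p under 0.05 and a lower level, against 6.64% of all genes. Without P0 replicate 4, 6 were called lower, against 6.43%. Hspa1a, the inducible heat shock protein, had 647, 331 and 5972 at P0, against 5566, 5327 and 3902 at E18. Hsp90aa1, the heat-inducible HSP90, had 1642, 2345 and 3692 at P0, against 5478, 5119 and 4023 at E18, without overlap (adjusted p = 0.0865 by limma). Fos had 7140, 5295 and 6974 at P0, against 7922, 8914 and 6257 at E18, and Egr1 2833, 1787 and 4840 at P0, against 7030, 6513 and 3263 at E18. Gadd45b, a stress-induced gene, was opposite in its estimate, with 903, 2897 and 1905 at P0, against 336, 297 and 1340 at E18. The part of sample handling in any of the changes above was not tested.

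Among imprinted fetal growth genes, Igf2, the fetal growth factor, had 308, 399 and 319 at P0, against 1941, 2488 and 388 at E18. The P0 arrays and E18 replicate 3 were alike, and only E18 replicates 1 and 2 were high (adjusted p = 0.336 by limma). Peg3 had 998, 1205 and 1503 at P0, against 2151, 1855 and 1412 at E18, a change of -0.55. Another Peg3 probe set had 140, 245 and 429 at P0, against 660, 762 and 560 at E18, without overlap. Its change was -1.42 (adjusted p = 0.110 by limma), and that of a further one, with overlap, was -1.22 (adjusted p = 0.133 by limma). Gnas had 6132, 8298 and 7624 at P0, against 8067, 6885 and 6724 at E18. The list of 17 had no call and a median change of -0.44. Other lists had medians between -0.31 and 0.17 and no call, and these were basal lamina and its receptors, chromatin and DNA methylation, ribosomal proteins, Hox genes, the circadian clock, hormone targets and interferon and MHC genes. In the last, Tap1, the peptide transporter of antigen presentation, had 151, 299 and 147 at P0, against 93.4, 101 and 105 at E18 (adjusted p = 0.128 by limma). H2-Ab1, an MHC class II chain, had 143, 165 and 115 at P0, against 78.5, 109 and 93.4 at E18.

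**Figure D5:**
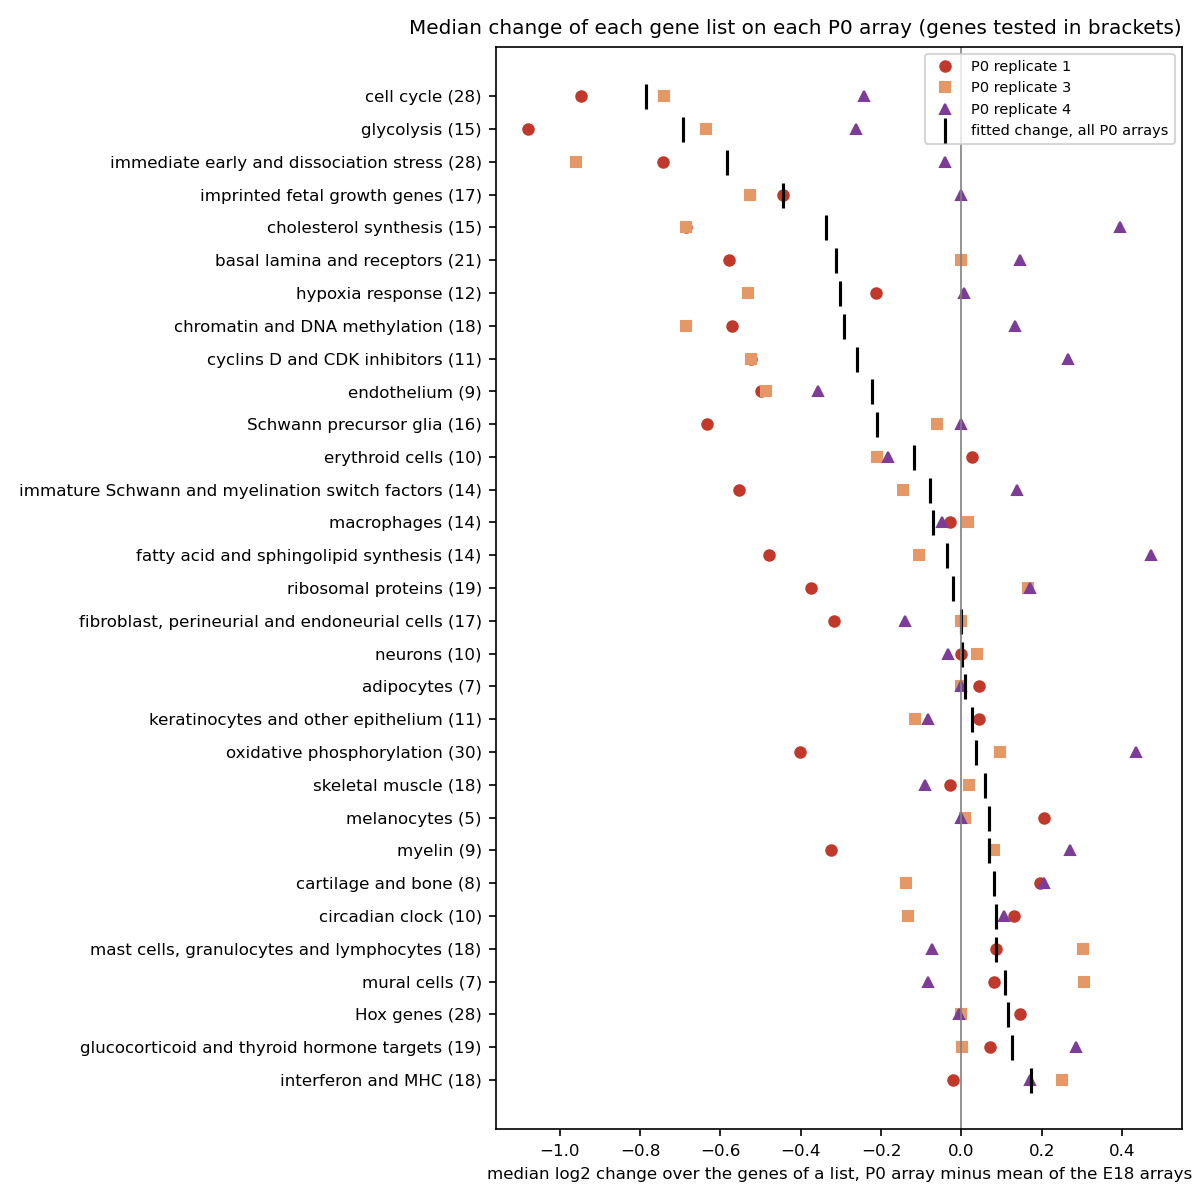
Median log2 change over the genes of each list (horizontal axis, P0 array minus the mean of the E18 arrays), for each P0 array (circle, square and triangle for replicates 1, 3 and 4) and for the fit over all P0 arrays (black bar); the number of genes tested is in brackets. Cell cycle and glycolysis are below 0 on every P0 array, with medians of -0.79 and -0.69 in the fit, while cholesterol synthesis is at -0.69 on P0 replicates 1 and 3 and at 0.40 on P0 replicate 4.

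Markers of other cells gave 1 call, in the red cell list. Among 9 endothelial markers, whose median change was -0.22, with -0.50, -0.49 and -0.36 on P0 replicates 1, 3 and 4, 3 lay lower on all P0 arrays, against 4.32% of all genes. Cldn5, the claudin of endothelial junctions, was below the floor on all P0 arrays, with 46.6, 55.7 and 44.5, against 99.8, 112 and 116 at E18 (adjusted p = 0.118 by limma). Flt1, a VEGF receptor, had 357, 337 and 394 at P0, against 535, 487 and 494 at E18, and Emcn 92.4, 105 and 49.1 at P0, against 124, 156 and 163 at E18. A dimmer Flt1 probe set overlapped, with 139, 99.6 and 122 at P0, against 142, 215 and 124 at E18. Its change was -0.39 (adjusted p = 0.702 by limma). Kdr, another VEGF receptor, had 258, 480 and 316 at P0, against 465, 416 and 322 at E18, and Tie1 382, 286 and 191 at P0, against 213, 179 and 133 at E18. The median changes of the lists for muscle, neurons, melanocytes, macrophages, mural cells, fibroblasts, adipocytes, cartilage, epithelium and leukocytes lay between -0.07 and 0.11.

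Each P0 array also had genes of its own, described here as values without a test. P0 replicate 4 lay more than 1 log2 unit above both other P0 arrays in 1099 probe sets and below both in 52. For P0 replicate 1 these counts were 183 above and 367 below, and for P0 replicate 3 they were 57 and 127. The genes that set P0 replicate 4 highest were Hspa1a, Ccnd2, Csrp1, Gsta4 and Fkbp4. Csrp1, an actin-binding LIM protein, had 281, 185 and 1863 at P0, against 565, 866 and 359 at E18. Fkbp4, a co-chaperone of HSP90, had 59.6, 118 and 591 at P0, against 507, 414 and 341 at E18. In Hspa1a and Ccnd2, P0 replicate 4 was like the E18 arrays and the other P0 arrays were not. P0 replicate 4 was lowest for Dnah8, Crct1, Actl7b, Ccr8 and Tnfaip2.

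P0 replicate 1 shared its highest genes with E16 replicates 1 and 2. Clec2m, a C-type lectin gene, had 9877, 155 and 154 at P0, against 95.3, 121 and 145 at E18, and on E16 replicates 1 and 2, both of lot 1, it had 10126 and 7298, with 140 and 109 on E16 replicates 3 and 4. Sox11, a transcription factor of immature neural cells, had 2829, 86.1 and 150 at P0, against 405, 286 and 148 at E18, and 3020, 2293, 621 and 352 on the E16 arrays. Ccn2, the connective tissue growth factor, had 1580, 0 and 9.26 at P0, against 214, 174 and 0 at E18, and 2507, 2151, 0 and 69.1 on the E16 arrays. Actn1 and Celf4 had the same profile. E18 replicate 1, also of lot 1, was far below those arrays, with 95.3 for Clec2m, 405 for Sox11 and 214 for Ccn2. Among the E18 arrays it was the highest for Sox11, Ccn2, Actn1 and Celf4, and the lowest for Clec2m. P0 replicate 1 was lowest for Pmfbp1, Aym1, Erdr1, Hk1 and Pafah2.

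The genes that set P0 replicate 3 highest were Gdnf, Ppfibp2, Ccl2, Sdc4 and Prrc2a. Gdnf, the neurotrophic factor that injured Schwann cells also make, had 531, 3173 and 604 at P0, against 302, 355 and 1682 at E18. Sdc4, the heparan sulphate proteoglycan syndecan 4, had 634, 3618 and 1202 at P0, against 641, 696 and 1525 at E18. Ccl2, a chemokine that draws monocytes, had 132, 397 and 52.0 at P0, against 112, 52.7 and 413 at E18. In all of these E18 replicate 3, which shares lot 3 with P0 replicate 3, was the highest E18 array. Dusp6, the phosphatase that restrains ERK, was low on the same pair, with 924, 191 and 1317 at P0, against 2371, 2439 and 428 at E18. Dock5, Ipo7, Cetn2 and Dpf3 were also lowest on P0 replicate 3. The part of the lot in these profiles was not tested.

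Whether the step across birth differed from the step before it was tested as P0 minus E18, less E18 minus E16. This difference was called for 6 probe sets, or 0.0576% of 10414. Both steps share the E18 arrays, so a shift of those arrays alone would enter both with opposite sign. Pdk1 had 394, 442, 382 and 324 on the E16 arrays, a change from E16 to E18 of 0.43 that did not pass, and its difference between the steps was -2.37 ± 0.38 (SE, adjusted p = 0.0361 by limma). Cirbp had 304, 303, 338 and 321 at E16, so that E18 was the low point, and its difference was 1.37 ± 0.23 (SE, adjusted p = 0.0429). Efhd2 had 145, 164, 168 and 128 at E16, again above E18, with a difference of 1.47 ± 0.25 (SE, adjusted p = 0.0442). Sncg, gamma-synuclein, of sensory and motor neurons and some glia, was called at both its probe sets. The brighter one had 429, 228 and 354 at P0, against 239, 235 and 195 at E18, and 597, 643, 617 and 567 at E16. Between E16 and E18, where 0.0768% of probe sets were called, it fell, and its change from E18 to P0 was 0.55 (adjusted p = 0.256 by limma). Without E18 replicate 2 or E18 replicate 3 no probe set was called, and without P0 replicate 4 there were 23. There were 2 without P0 replicate 1, 4 without P0 replicate 3 and 3 without E18 replicate 1, and 1, 3, 2 and 9 without E16 replicates 1, 2, 3 and 4 in turn.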

How the data were processed

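Sorted sciatic nerve cells were measured on an Affymetrix mouse array after amplification by 2 rounds of in vitro transcription, per the labels. The deposited values are model-based expression indices, a linear intensity that the authors computed with dChip after smoothing spline normalization, with probe sensitivities from 18 arrays, per the labels. Of 12488 probe sets, 66 are controls and were left out. The platform annotation gave 1 symbol to 10833, several to 396 and none to 1193.

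Values were raised to a floor of 68.5, the 25th percentile, and taken to log2. The 10414 probe sets above the floor on at least 3 arrays were fitted with limma 3.58.1 in R 4.3.3, over all 19 arrays with a mean per stage (13 residual degrees of freedom), two-sided, with Benjamini-Hochberg adjustment. A fold change of genes near the floor is understated. The second test set P0 minus E18 against E18 minus E16. The fit was tested on simulated data. List members were taken at the probe set with the highest mean, which leaves 7414 genes.

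Same-numbered arrays of P0 and E18 also carry one lot number in the labels (E16 replicate 2 alone has a lot number other than its own). Their deviations from the stage mean correlated at 0.030 (replicate 1) and 0.284 (replicate 3). A replicate block, a lot block, other floors, filters, scalings, weights and a GAPDH covariate were tried. Each P0 and E18 array was left out in turn, and for the second test each E16 array as well. Named are the called genes with 1 symbol and no overlap, the next by moderated t up to 15 in each direction, leading list members, and the 5 highest and 5 lowest genes of each P0 array. The genes, lists and tests were chosen with earlier results of these data known.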

Additional observations from a re-analysis of the deposited data

Results flagged for a closer look

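The difference between the step across birth (P0 minus E18) and the step before it (E18 minus E16) was called for 6 probe sets by limma, which is the test of the difference itself. It was -2.37 for Pdk1, 1.37 for Cirbp and 1.47 for Efhd2, whose changes across birth also passed. For Sncg it was 1.57 (adjusted p = 0.00596) at a probe set below the floor on all E18 arrays and 2.00 (adjusted p = 0.0361) at a brighter one. An unnamed probe set had 3.65 ± 0.63 (SE, adjusted p = 0.0455), with 327, 125 and 226 at P0, against 52.9, 55.2 and 51.7 at E18, all below the floor, and 376, 250, 332 and 197 at E16. Both steps share the 3 E18 arrays, and none of the 6 calls remained in the fit of the arrays compared alone or without E18 replicate 2 or E18 replicate 3.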

How the results depend on the processing

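The count of 13 for P0 against E18 was 7 with no filter, 56 under quantile normalization, 0 in the fit of the 6 arrays alone (769 at an unadjusted p under 0.05), 4 with only the nerve arrays, 865 with array weights and 40 with the replicate block, in which 12 of the 13 were still called. Leaving out 1 array at a time gave 2 to 715. Other floors, a pseudocount of 32, trended and robust moderation, the lot block and the GAPDH covariate gave 11 to 18, of which 5 of the 13 remained with the covariate (Pdk1, both globin probe sets, Cirbp and Aldh1a7) and 9 with the lot block. The count of 6 for the difference between the steps was 3 with a floor at the 40th percentile, with the pseudocount, with trended and robust moderation, with the lot block, with the replicate block and with the covariate, 0 with only the arrays compared (547 at an unadjusted p under 0.05), 1 with only the nerve arrays and 1443 with array weights. Leaving out 1 array at a time gave 0 to 23. The cause of these shifts was not tested, beyond fewer arrays or more probe sets entering a fit. All 13 probe sets called across birth kept their sign in each of these settings. Some estimates that did not pass changed sign, such as Mal (0.31 with the covariate, against -0.28), Ednrb (0.11 with the covariate and 0.23 without P0 replicate 1, against -0.29) and the median of the cholesterol genes (0.02 with the covariate, against -0.34). Signal near the floor limits Hbb-b2, Aldh1a7, Vegfa and Cldn5, and 3 arrays a stage limit every value.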
